A study of Homo sapiens with 24 samples.

Results

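The genes described here are 10 chaperones taken by symbol from the 25082 genes of the deposited expression table: HSPA8, HSPA1A, HSPA1B, HSPH1, DNAJB1, DNAJA1, HSP90AA1, HSP90AB1, HSPD1 and HSPE1. All 10 symbols were found and all 10 passed the filter on low values. They are known together as cytosolic heat shock chaperones, which holds for 8 of them. HSPD1 and HSPE1 encode the chaperonin and co-chaperonin of the mitochondrial matrix and are described apart from the others.

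SET2 is an established human megakaryoblastic cell line from a myeloproliferative neoplasm that grows on JAK2 signalling. Poly(A) RNA of 24 libraries in 8 groups of 3 was sequenced on the Ion Proton. In 4 groups the cells were persistent lines, grown continuously in a type I JAK inhibitor: BMS911543, which is selective for JAK2, CYT387 (momelotinib), INC424 (ruxolitinib) or SAR302503 (fedratinib). The other 4 groups were naive cells given INC424 for 48 h, naive cells given INC424 for 4 h, naive cells given the vehicle DMSO for 4 h, and naive cells with no exposure. All cells were kept in RPMI1640 with 20% FCS. No concentration is given, the vehicle was sampled at 4 h but not at 48 h, and each persistent state is represented by 1 line. The labels do not say whether the 3 libraries of a group came from separate cultures, so every p-value measures only the spread between these libraries.

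Molecular chaperones bind unfolded proteins and help them fold. HSP70 proteins (HSPA8, made constitutively, and HSPA1A and HSPA1B, made under stress) take up clients delivered by J-domain proteins such as DNAJA1 and DNAJB1, and HSPH1 of the HSP110 family releases them by exchanging nucleotide. Many kinases and receptors are then passed to HSP90, of which HSP90AA1 is the inducible and HSP90AB1 the constitutive cytosolic form, and JAK2 is a known HSP90 client. The transcription factor HSF1 drives many of these genes through heat shock elements, inverted repeats of the unit GAA. HSPD1 and HSPE1 share a promoter region and fold proteins inside mitochondria.

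The promoter sequences are shown because 8 of the 10 members held the letters of these elements. Whether the elements bear on the changes described below was not tested. All 10 members matched the RefSeq promoter table (GRCh38.p14), with 16 windows that run from 250 bases before to 50 bases after an annotated start. The letters searched were GAANNTTC and TTCNNGAA, which pair 2 units, and GAANNTTCNNGAA and TTCNNGAANNTTC, which hold 3 units and contain the shorter letters. Each pair of units reads the same on both strands, and the 2 longer forms are each other's reverse complement. A pair of units stood in a window of 8 of the 10 members (80%), against 16.2% of 27305 genes, and 3 units in 5 of the 10 (50%), against 0.608% of all genes. HSPH1 and HSPE1 had neither form in their windows. The letters found for HSPD1 lie upstream of the HSPE1 start, outside the HSPE1 window. Members with more than 1 annotated start also had windows without a match: 1 of 2 in HSPD1 and in HSP90AA1, 2 of 3 in HSP90AB1 and 1 of 3 in DNAJB1. The letters TTCNNNGAA, the core that STAT factors bind, were in no member's window and in 9.38% of all genes. A match is a description of the letters, not a bound site, and a window without a match says nothing about the factor.

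Below are the 250 bases before the start, 5′ to 3′ on the gene's strand, of the most abundant HSP70 gene, of the inducible HSP90 gene and of the mitochondrial chaperonin gene. Capitals mark the heat shock element letters. HSP90AA1 and HSPD1 each have another annotated start, whose window had no match and is not shown.
HSPA8, chr11:123062137-123062386, minus strand: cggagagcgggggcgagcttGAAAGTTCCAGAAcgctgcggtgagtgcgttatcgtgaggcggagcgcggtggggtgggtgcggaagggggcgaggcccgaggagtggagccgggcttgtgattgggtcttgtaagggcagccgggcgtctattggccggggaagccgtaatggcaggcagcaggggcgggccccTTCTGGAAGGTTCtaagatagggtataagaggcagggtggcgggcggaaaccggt
HSP90AA1, chr14:102087045-102087294, minus strand: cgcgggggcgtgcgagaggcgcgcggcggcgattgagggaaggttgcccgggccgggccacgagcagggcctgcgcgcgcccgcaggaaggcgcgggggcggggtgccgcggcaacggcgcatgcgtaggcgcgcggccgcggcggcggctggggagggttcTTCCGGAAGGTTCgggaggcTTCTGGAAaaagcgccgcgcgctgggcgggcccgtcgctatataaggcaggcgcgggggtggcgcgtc
HSPD1, chr2:197499841-197500090, minus strand: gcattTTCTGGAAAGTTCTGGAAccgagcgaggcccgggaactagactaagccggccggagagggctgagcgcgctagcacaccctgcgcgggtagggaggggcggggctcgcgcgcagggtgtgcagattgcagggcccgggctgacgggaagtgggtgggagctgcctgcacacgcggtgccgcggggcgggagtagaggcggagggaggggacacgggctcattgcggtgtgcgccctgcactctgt

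In 5 further members only a site with the longest run of units is shown, since the members differ in the number of units. HSP90AB1 and DNAJB1 also hold other runs of the same length, which are not shown. The DNAJA1 stretch shown spans the annotated start, and its capitals lie after the start. HSPA1A and HSPA1B are near copies of each other.
HSP90AB1, chr6:44247823-44247851, plus strand: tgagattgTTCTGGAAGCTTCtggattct
DNAJA1, chr9:33025268-33025296, plus strand: gccgggcgGAACTTTCCAGAAcgctcggt
DNAJB1, chr19:14518426-14518455, minus strand: ggcgggctctgGAAGCTTCcgccggacggg
HSPA1A, chr6:31815426-31815455, plus strand: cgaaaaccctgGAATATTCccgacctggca
HSPA1B, chr6:31827622-31827651, plus strand: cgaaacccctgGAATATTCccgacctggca

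Levels are normalised read counts, in which the authors divided each library by 1 size factor, and libraries held 21770721 to 36160750 reads on genes. Differences are log2 values fitted by limma to log2 of the normalised count plus 1 over 20154 genes and all 24 libraries. A gene is said to be higher or lower, or to rise or fall, where its adjusted p was below 0.05. The STAT targets SOCS3, CISH and PIM1 were lower in all 3 INC424 4 h libraries than in any DMSO library. The megakaryocyte and erythroid markers ITGA2B, GP9, GATA1, TAL1, GFI1B and NFE2 had reads in every library, and PF4 was at or near 0 outside the INC424 persistent line. 3 libraries stood apart. Squamous epithelial genes took 0.450% of reads in CYT387 persistent library 2 and 0.0999% in SAR302503 persistent library 3, against at most 0.0272% in the other 22. Genes of stroma, vessels and macrophages took 0.705% in CYT387 persistent library 2. The 10 members took 0.669% of reads in naive library 1, against 0.520% and 0.513% in naive libraries 2 and 3. Where a member's call was lost without one of these libraries, that is said beside it. In RNA of whole cultures, fewer cells that express a gene and less of its RNA per cell cannot be told apart.

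Per kilobase of merged exon (GENCODE 29), HSP90AB1 and HSPA8 were the most abundant members in all 8 groups. In naive cells the mean normalised count per kilobase was 23920.0 for HSP90AB1, 11045 for HSPA8, 4417 for HSP90AA1, 2187 for DNAJA1 and 2019.6 for HSPD1. DNAJB1 followed at 592, HSPE1 at 397, HSPH1 at 338, HSPA1B at 205 and HSPA1A at 91.9. Per kilobase the mean of HSPA8 was above those of the stress-inducible HSPA1A and HSPA1B in every group. Reads of HSPA1A and HSPA1B could be split or lost between the copies: 69.9% of the 100-base stretches of the HSPA1A transcript also occur in HSPA1B, so each is uncertain on its own. For HSPE1 17.0% of such stretches occur in other genes, mostly the readthrough gene HSPE1-MOB4, and for the remaining members at most 3.90%. HSPD1 overlaps HSPE1, DNAJB1 overlaps TECR, and HSP90AA1 overlaps WDR20 on the other strand; whether reads were counted by strand is not given in the sources used here.

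**Figure D1:**
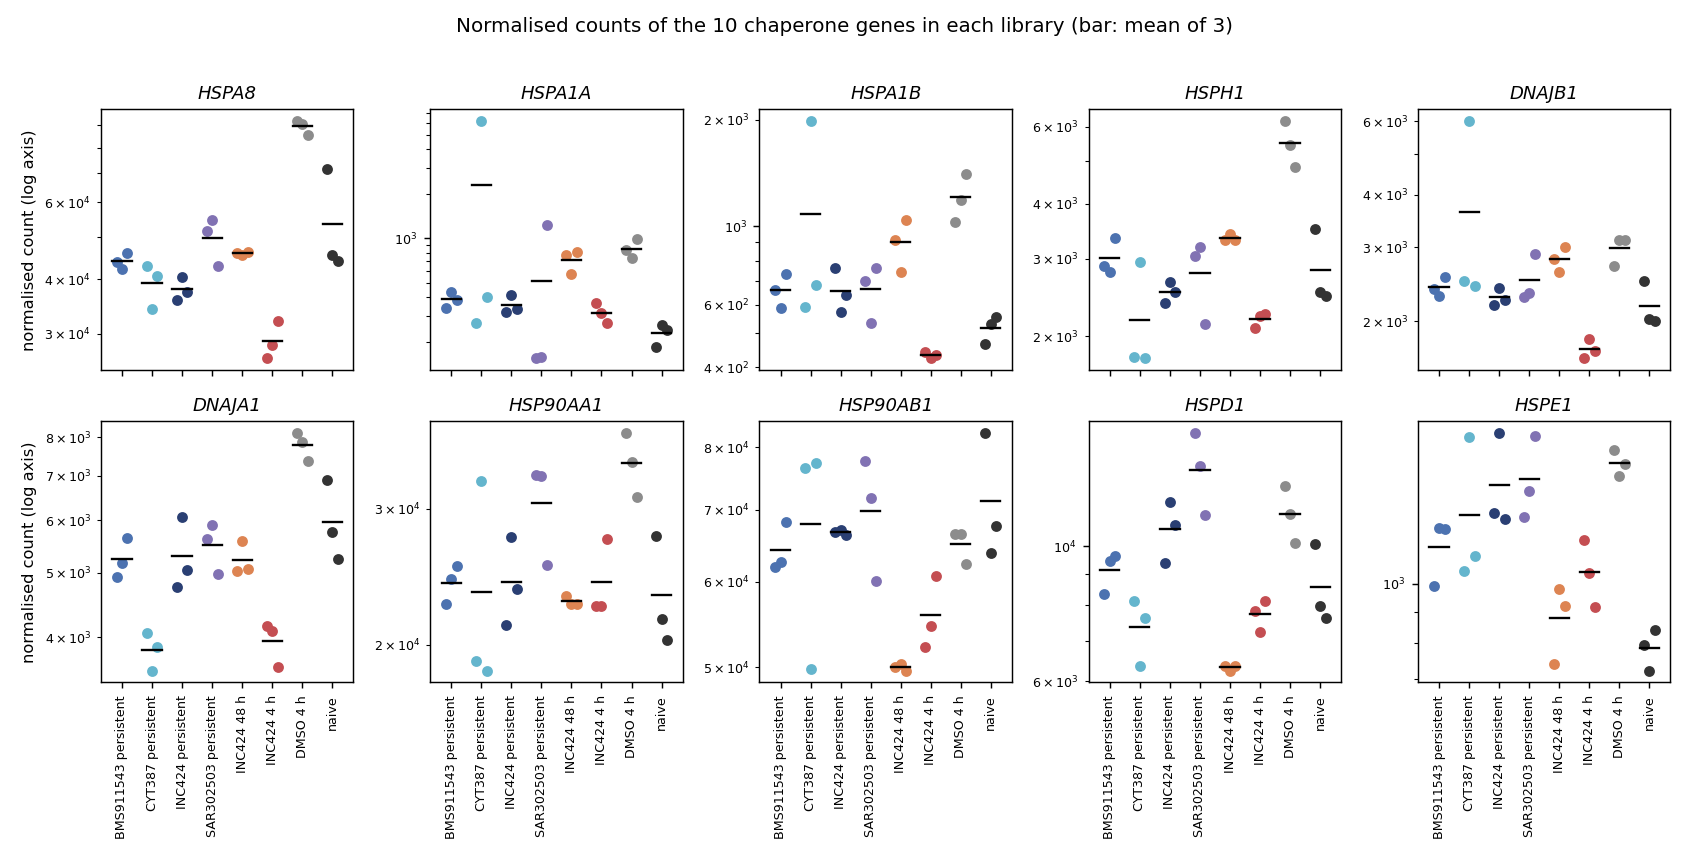
Normalised counts (log axis) of each chaperone gene in the 24 libraries, 1 point a library and a bar at the mean of each group of 3. In all 10 panels the INC424 4 h points lie below the DMSO 4 h points, as for 18.4% of all genes tested, and in 9 the DMSO points lie above the naive points, as for 23.8% of all genes.

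After 4 h of INC424, 7 of the 10 members fell against vehicle (limma), while 3.49% of all genes tested were lower in that comparison, and none rose, where 4.88% of all genes were higher. The median log2 difference of the members was -0.89, against -0.01 over all genes. The members that fell were HSPA8, HSPA1B, HSPH1, DNAJA1, DNAJB1, HSPD1 and HSPE1. For all 10 members the INC424 4 h libraries lay below every DMSO library, as they did for 18.4% of all genes tested.

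HSPA8 had the largest log2 difference of those that passed. It had 26356, 28251 and 32075.5 normalised counts in the INC424 4 h libraries, against 92025, 90723 and 85777 in the DMSO 4 h libraries. That is 32.2% of the vehicle mean and a log2 difference of -1.64 ± 0.15 (SE, adjusted p = 4.43e-07, limma). HSPA1B had 442, 423 and 432 with INC424 and 1026.5, 1189 and 1403 with DMSO, a log2 difference of -1.47 ± 0.28 (adjusted p = 0.00172, limma). Its near copy HSPA1A had 364, 312 and 268 with INC424, against 831, 740 and 988 with DMSO. Its log2 difference of -1.44 ± 0.77 did not pass (adjusted p = 0.312, limma), although the groups did not overlap. The error comes from a spread shared by all groups, and without CYT387 persistent library 2, where HSPA1A stood at 6204, the same difference had an adjusted p of 0.0297 (limma). The sum of both copies gave -1.46 ± 0.50 (adjusted p = 0.0824, limma).

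The partners of HSP70 fell too. HSPH1, the nucleotide exchange factor, had 2093, 2227 and 2249 with INC424, against 6168, 5457 and 4857 with DMSO, a log2 difference of -1.32 ± 0.18 (adjusted p = 2.94e-05, limma). DNAJA1, a J-domain protein that feeds HSP70, had 4159.5, 4090.3 and 3603 with INC424, against 8115, 7884 and 7371 with DMSO (log2 -0.98 ± 0.12, adjusted p = 6.52e-06, limma). DNAJB1, the J-domain protein that works with HSPH1 in disaggregation, had 1629, 1816.5 and 1695 with INC424, against 2711, 3118 and 3127 with DMSO (log2 -0.80 ± 0.21, adjusted p = 0.0218, limma). Both groups were tight in each of these genes, and no library of 1 group reached the other.

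The HSP90 genes did not pass. HSP90AA1 had 22479.9, 22477 and 27403 with INC424, against 37574, 34478 and 31084 with DMSO, a log2 difference of -0.51 (95% interval -0.88 to -0.14, adjusted p = 0.0825, limma). Without CYT387 persistent library 2 it passed at the same size (adjusted p = 0.00585, limma). HSP90AB1 had 52249, 54589.7 and 60782 with INC424, against 66449.8, 66498 and 62328.5 with DMSO (log2 -0.22, 95% interval -0.54 to 0.09, adjusted p = 0.462, limma). The highest INC424 library lay just under the lowest DMSO library. The ratio of HSP90AA1 to HSP90AB1 counts was 0.431 ± 0.0196 with INC424 and 0.528 ± 0.0343 with DMSO (SD, n = 3 each), and the ratio was not tested.

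Both mitochondrial genes passed. HSPD1 had 7823, 7245 and 8134 with INC424, against 12552, 11298 and 10117 with DMSO (log2 -0.55 ± 0.13, adjusted p = 0.0118, limma). HSPE1 had 1177, 1042 and 915 with INC424, against 1651, 1495 and 1567 with DMSO (log2 -0.59 ± 0.18, adjusted p = 0.0386, limma). HSPA8, HSPA1B, HSPH1 and DNAJA1 passed whichever of the 24 libraries was left out. DNAJB1, HSPD1 and HSPE1 did not, and 4 members passed without INC424 4 h library 2. The labels say that 9 libraries were run again or on 2 lanes to gain reads. Among the 2 libraries of this comparison run once HSPA8 differed by -1.52 and among the 4 run again by -1.69. Over the 10 members these differences ran from -1.63 to -0.13 among the libraries run once, where 1 library stands against 1, and from -1.69 to -0.27 among those run again, with no test.

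The vehicle group itself differed from the naive group. 7 of the 10 members were higher in DMSO 4 h than in naive cells, where 11.4% of all genes were higher. They were HSPA8, HSPA1B, HSPH1, DNAJA1, HSP90AA1, HSPD1 and HSPE1. HSPA8 had 92025, 90723 and 85777 in the DMSO libraries and 71368, 45355 and 43955 in the naive libraries (log2 0.78 ± 0.15, adjusted p = 0.000642, limma). Naive library 1 lay between the vehicle libraries and the other 2 naive libraries, and without it the difference was 1.00. All naive libraries were run once, and among the libraries run once HSPA8 differed by 0.82 and HSPE1 by 1.07. These values rest on DMSO library 1 alone, with no test. HSPE1 had 1651, 1495 and 1567 with DMSO, against 793.5, 722 and 841 in naive cells (log2 1.00 ± 0.18, adjusted p = 0.000223, limma). HSPH1 differed by 0.97, HSPA1B by 1.21 (adjusted p = 0.00295, limma), HSP90AA1 by 0.58, HSPD1 by 0.41 and DNAJA1 by 0.39. HSP90AB1 had a difference of -0.12, DNAJB1 of 0.46 and HSPA1A of 1.90, none of which passed (adjusted p = 0.601, 0.12 and 0.0722, limma). DNAJB1 (adjusted p = 0.00128) and HSPA1A (adjusted p = 0.00185, limma) passed with the same differences when CYT387 persistent library 2 was left out. That library is in neither group, and the share of all genes called in that fit is not given here. The count was 4 without DMSO library 1, without naive library 2 or without naive library 3. How naive and vehicle cells were handled apart from DMSO is not given in the labels.

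INC424 4 h was also set against naive cells in place of vehicle, a comparison added after the values were seen. HSPA8 (log2 -0.86 ± 0.15, adjusted p = 0.000641, limma) and DNAJA1 (log2 -0.59 ± 0.12, adjusted p = 0.00153, limma) were lower, 2 of 10 members, where 7.03% of all genes were lower and 4.81% higher. Without naive library 1 both were still lower, by -0.63 (adjusted p = 0.00343) and -0.48 (adjusted p = 0.0126, limma). HSPE1 had 1177, 1042 and 915 with INC424, all above 793.5, 722 and 841 in naive cells, and its difference of 0.41 did not pass (adjusted p = 0.149, limma). HSP90AA1 differed by 0.06 (95% interval -0.31 to 0.43) and HSPD1 by -0.14 (-0.42 to 0.14). HSPH1 differed by -0.35 (adjusted p = 0.209), HSP90AB1 by -0.35 (0.150), DNAJB1 by -0.34 (0.343), HSPA1B by -0.25 (0.624) and HSPA1A by 0.47 (0.759, limma), none past the threshold. The INC424 4 h libraries lay below every naive library in 6 members, as for 20.9% of all genes, and above every naive library in 2, as for 19.2%. Without CYT387 persistent library 2, which is in neither group, DNAJB1 (adjusted p = 0.0234), HSP90AB1 (0.0194) and HSPE1 (0.0420, limma) passed too, with unchanged differences. For that fit the share of all genes called is not given here. Both comparisons with INC424 4 h use the same libraries, so they are not independent.

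After 48 h of INC424 several HSP70 system genes stood above their 4 h level. Against DMSO 4 h, 6 of 10 members were lower, where 16.4% of all genes were: HSPA8 (log2 -0.96), HSPH1 (-0.71), DNAJA1 (-0.58), HSP90AA1 (-0.59), HSPD1 (-0.83) and HSPE1 (-0.84). Set directly against INC424 4 h, 5 members were higher at 48 h, where 7.03% of all genes were: HSPA8 (log2 0.67), HSPA1B (1.04), HSPH1 (0.61), DNAJB1 (0.71) and DNAJA1 (0.40). HSPA8 had 46028, 45517 and 46078 at 48 h, against 26356, 28251 and 32075.5 at 4 h (adjusted p = 0.00415, limma). DNAJB1 had 2809.98, 2621 and 3011 at 48 h, above every 4 h library and overlapping the DMSO libraries (log2 -0.08 to DMSO, 95% interval -0.53 to 0.36). The count of 5 fell to 2 without any 48 h library or without 4 h library 3, and to 3 without 4 h library 1 or 2; HSPA8 passed each time. HSPD1 had 6369, 6253.5 and 6359 at 48 h, below all 4 h libraries (7823, 7245 and 8134), a log2 difference of -0.29 that did not pass (adjusted p = 0.165, limma). HSPE1 had 739.8, 981 and 921 at 48 h (log2 -0.25 to 4 h, adjusted p = 0.401, limma). Against naive cells, a comparison added after the values were seen, HSP90AB1 (log2 -0.50, adjusted p = 0.0212) and HSPD1 (log2 -0.43, adjusted p = 0.0267, limma) were lower at 48 h, 2 of 10 members, where 11.4% of all genes were lower and 8.67% higher. Neither passed without naive library 1 (log2 -0.39, adjusted p = 0.116, and -0.30, adjusted p = 0.164, limma), nor without any 1 of the 48 h libraries. Without CYT387 persistent library 2, HSPA1A (log2 1.65, adjusted p = 0.00715), HSPA1B (0.79, adjusted p = 0.000367) and DNAJB1 (0.38, adjusted p = 0.00796, limma) were higher at 48 h than in naive cells as well. That library is in neither group, and the share of all genes called in that fit is not given here. With no vehicle group at 48 h, exposure time and time in culture cannot be told apart.

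In the persistent lines HSPE1 was higher than in naive cells in all 4. The number of members that passed against naive cells was 1 of 10 in the BMS911543 line, 4 in the CYT387 line, 2 in the INC424 line and 2 in the SAR302503 line. Higher calls took 10.4%, 11.2%, 9.95% and 8.7% of all genes in these 4 lines, and lower calls 14.2%, 11.1%, 12.5% and 10.6%. All 4 comparisons share the naive libraries.

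HSPE1, the mitochondrial co-chaperonin, passed in each line. It had 991, 1231 and 1226 normalised counts in the BMS911543 line, 1048, 1732 and 1108 in the CYT387 line, 1302, 1758 and 1276 in the INC424 line, and 1283, 1414 and 1741 in the SAR302503 line, against 793.5, 722 and 841 in naive cells. Every persistent library was above every naive library, as was every DMSO 4 h and every INC424 4 h library. Of the 8 groups, DMSO 4 h had the highest mean (1571) and naive cells the lowest (786). A level above naive cells was therefore not particular to the persistent lines. The log2 differences were 0.54 (adjusted p = 0.0272), 0.69 (0.00832), 0.87 (0.000859) and 0.90 (0.000785, limma). In the CYT387 line the difference was 0.46 without library 2 (adjusted p = 0.0465, limma) and 0.47 without both that library and naive library 1 (adjusted p = 0.0737, limma). The BMS911543 call was lost without that line's library 2 or 3 or naive library 1 or 2. Over the mean of the 4 lines HSPE1 was higher by 0.75 ± 0.14 (adjusted p = 0.000385, limma), where 9.79% of all genes were higher and 12% lower, and this held whichever library was left out.

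HSPD1, the chaperonin that pairs with HSPE1, differed between lines (moderated F-test of limma, adjusted p = 0.000181; 47.1% of all genes differed between lines). It had 8354, 9464 and 9625 in the BMS911543 line, 8136, 6370.4 and 7633 in the CYT387 line, 9402, 11830.0 and 10849 in the INC424 line, and 15335, 13535.5 and 11241 in the SAR302503 line, against 10104.5, 7978 and 7637 in naive cells. The SAR302503 libraries lay above all naive libraries (log2 0.64, adjusted p = 0.00145, limma) and the CYT387 libraries below or among them (log2 -0.21, adjusted p = 0.25, limma). In the INC424 line the difference was 0.32 (adjusted p = 0.089, limma), and 0.45 without naive library 1 (adjusted p = 0.0247, limma). The ratio of HSPD1 to HSPE1 counts was 7.48 ± 0.913 in the INC424 line and 10.95 ± 1.83 in naive cells (SD, n = 3 each), and the ratio was not tested.

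Of the HSP70 and HSP90 genes, HSPA8 passed in the INC424 line and DNAJA1, HSPA1B and DNAJB1 in the CYT387 line. HSPA8 had 43704, 42339.8 and 45892 in the BMS911543 line, 42807, 34215 and 40807 in the CYT387 line, 35916, 40504 and 37373 in the INC424 line, and 51489, 54810.4 and 42934 in the SAR302503 line, against 71368, 45355 and 43955 in naive cells. The INC424 libraries were below all naive libraries (log2 -0.46, adjusted p = 0.0317, limma), but without naive library 1, the highest, the difference was -0.24 (adjusted p = 0.231, limma). The call was also lost without INC424 persistent library 1 or 3. In the CYT387 line HSPA8 also lay below all naive libraries, and its log2 difference of -0.42 did not pass (adjusted p = 0.0535, limma). It passed there without CYT387 persistent library 1, SAR302503 persistent library 3, or naive library 2 or 3. With each library left out that difference ran from -0.54 to -0.19. DNAJA1 was lower in the CYT387 line, with 4058, 3562 and 3860.2, against 6908, 5759 and 5243 in naive cells (log2 -0.63, adjusted p = 0.000442, limma), and it differed between lines (adjusted p = 0.00244, moderated F-test of limma). In the other 3 lines DNAJA1 differed from naive by -0.11 to -0.18 and did not pass, and its fall over the mean of the lines (log2 -0.27, adjusted p = 0.0345, limma) was kept in 19 of 24 fits with a library left out and was -0.16 without naive library 1 (adjusted p = 0.292, limma). HSP90AB1 differed from naive by -0.03 to -0.14 over the 4 lines and HSPH1 by -0.40 to 0.11, with no call. HSP90AA1 differed by 0.40 in the SAR302503 line (95% interval 0.03 to 0.77, adjusted p = 0.125, limma) and passed there without CYT387 persistent library 2 (adjusted p = 0.0184, limma).

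The inducible genes were high in CYT387 persistent library 2. HSPA1A had 268, 6204 and 403 normalised counts in the CYT387 line and 154, 158 and 1232 in the SAR302503 line, against 184, 260 and 241 in naive cells. HSPA1B had 591, 1979.96 and 683 in the CYT387 line, and DNAJB1 had 2498, 5996 and 2430.03. In each case library 2 was the high value, and library 3 of the SAR302503 line was high for HSPA1A. These are the 2 libraries with the most squamous epithelial RNA. HSPA1B (log2 0.85) and DNAJB1 (0.62) passed in the CYT387 line with library 2 and had 0.30 (adjusted p = 0.242, limma) and 0.19 (adjusted p = 0.291, limma) without it. Of 24 fits with a library left out, HSPA1B was kept in 20 and DNAJB1 in 8, and without naive library 1 HSPA1B had 0.78 (adjusted p = 0.109, limma). Without CYT387 persistent library 2 HSPH1 was lower (log2 -0.65, adjusted p = 0.00375, limma), and HSPA1A in the SAR302503 line was -0.53 without library 3, against 0.46 with it. The part of epithelial and stromal RNA in the levels of these genes was not tested.

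**Figure D2:**
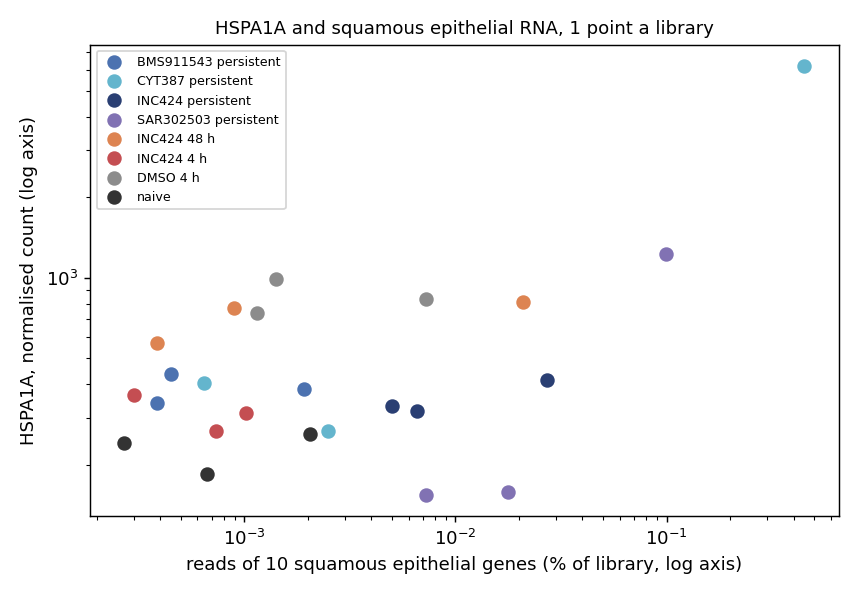
HSPA1A normalised count against the share of reads on 10 squamous epithelial genes, both on log axes, 1 point a library. CYT387 persistent library 2 (0.450% of reads, count 6204) and SAR302503 persistent library 3 (0.0999%, count 1232) are the 2 highest on both axes, while the other 22 libraries spread over counts of 154 to 988.

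**Figure D3:**
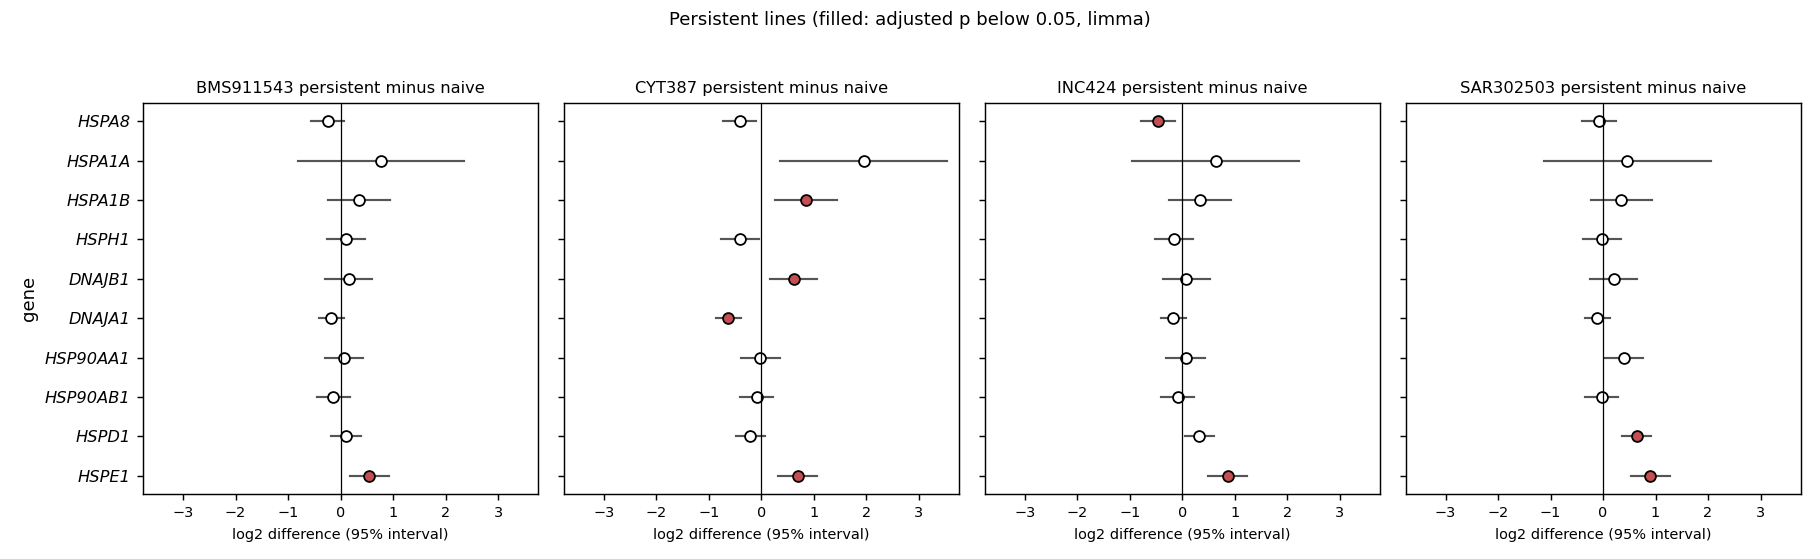
Fitted log2 differences of the 10 genes to naive cells with 95% intervals in the 4 persistent lines (limma, n = 3 a group), filled where the adjusted p was below 0.05. HSPE1 is filled in all 4 panels, and HSPA1A has the widest intervals.

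The change of the chaperones in the INC424 persistent line differed from their change at 4 h of INC424. The change of the line against naive cells minus the change of 4 h INC424 against DMSO was tested in the same fit, and the 2 changes share no library. 7 of the 10 members had a positive difference that passed, where 8.11% of all genes did. HSPA8 changed by -0.46 in the line and by -1.64 at 4 h, a difference of 1.17 ± 0.22 (adjusted p = 0.000402, limma). HSPH1 changed by -0.15 in the line and -1.32 at 4 h, a difference of 1.17 ± 0.25 (adjusted p = 0.00159, limma). HSPE1 changed by 0.87 in the line and -0.59 at 4 h, in opposite directions, a difference of 1.46 ± 0.25 (adjusted p = 0.000182, limma). The others that passed were HSPA1B (1.81), DNAJB1 (0.87), HSPD1 (0.87) and DNAJA1 (0.81), of which DNAJB1 kept its call in 6 of 24 fits with a library left out, and the other 6 members in all. Among the libraries run once the difference was 1.07 for HSPA8 and 1.80 for HSPE1. There the 4 h change rests on INC424 4 h library 3 against DMSO library 1, with no test. HSP90AA1 had 0.58 ± 0.25 (SE, adjusted p = 0.117, and 0.0160 without CYT387 persistent library 2, limma) and HSP90AB1 0.14 (-0.31 to 0.58, adjusted p = 0.719, limma). HSPA1A had 2.08 (adjusted p = 0.197, and 0.0151 without that library, limma).

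Against the mean of the 4 lines the same 7 members passed, where 7.31% of all genes had a higher call, and all 7 held whichever library was left out. The differences were 1.33 for HSPA8, 1.94 for HSPA1B, 1.202 for HSPH1, 1.06 for DNAJB1, 0.71 for DNAJA1, 0.76 for HSPD1 and 1.34 for HSPE1. This and the test of the INC424 line share the INC424 4 h, DMSO 4 h, naive and INC424 persistent libraries, so they are not independent.

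Each such difference is the sum of 2 parts, the level in the line against INC424 4 h and the level in DMSO against naive cells. For HSPA8 these were 0.40 and 0.78, for HSPE1 0.46 and 1.00, and for HSPH1 0.20 and 0.97, so the second part was the larger. The second part was also the larger for HSPA1B (0.59 and 1.21) and DNAJB1 (0.41 and 0.46). For DNAJA1 they were 0.42 and 0.39 and for HSPD1 0.46 and 0.41. Compared directly, 2 of 10 members were higher in the INC424 line than after 4 h of INC424, DNAJA1 (adjusted p = 0.0106) and HSPD1 (adjusted p = 0.014, limma), where 11.4% of all genes were. HSPA8 had 35916, 40504 and 37373 in the line, above all of 26356, 28251 and 32075.5 at 4 h, with adjusted p = 0.0658 (limma). Leaving out INC424 persistent library 2 took the count to 0, and leaving out INC424 4 h library 2 or 3 took it to 1. Without CYT387 persistent library 2, which is in neither group, it was 6, with HSPA8, HSPA1B, DNAJB1 and HSPE1 higher too. Their differences were unchanged, and the share of all genes called in that fit is not given here. Against INC424 48 h the line was higher in HSP90AB1 (log2 0.42), HSPD1 (0.75) and HSPE1 (0.71), 3 of 10 members, where 14.5% of all genes were higher and 15.4% lower. Another 3 members passed without CYT387 persistent library 2 and were lower in the line, HSPA1B (log2 -0.45), HSPH1 (-0.41) and DNAJB1 (-0.30). The share of all genes in that fit is likewise not given here. HSP90AB1 had 66806.5, 66961 and 66313 in the line and 49990.0, 50323 and 49645 at 48 h, with no overlap (adjusted p = 0.0409, limma). Its call was kept in 15 of 24 fits with a library left out, and without any 1 library of either group the adjusted p was 0.0858 to 0.0935 (limma).

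Members were ordered differently across the groups. DMSO 4 h held the highest mean of HSPA8, HSPA1B, HSPH1, DNAJA1, HSP90AA1 and HSPE1, and its libraries did not overlap the next group for HSPA8, HSPH1 and DNAJA1. INC424 4 h held the lowest mean of HSPA8, HSPA1B and DNAJB1, apart from the next group in each. INC424 48 h held the lowest mean of HSP90AB1 and HSPD1, again without overlap. The share of all genes whose highest or lowest group stands apart in this way was not counted. Naive cells held the lowest HSPE1 and HSPA1A. Over the 24 libraries the log2 values of HSPA8 followed DNAJA1 (Pearson r = 0.88) and HSPH1 (0.84), those of HSPA1B followed DNAJB1 (0.89) and HSPA1A (0.83), and HSP90AB1 had r = -0.13 with the mean of the other members. These are descriptions over libraries that share groups and include the 3 that stood apart. Among 13878 genes outside the lists with a mean of at least 50 normalised counts, EIF5 (r = 0.82), a translation initiation factor, HNRNPAB (0.81), DYNLL1 (0.81) and NOP16 (0.80) followed the mean of the members most closely over the same 24 libraries.

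Other chaperone genes, in lists drawn up with earlier results of these data known, fell in part at 4 h of INC424, where 3.49% of all genes were lower and 4.88% higher. Of the 8 subunits of the cytosolic chaperonin TRiC, which folds actin and tubulin, 5 were lower, with a median log2 of -0.37. CCT6A averaged 5935 ± 131 with INC424 and 8497 ± 735 with DMSO (SD, n = 3 each, log2 -0.51, adjusted p = 0.0104, limma), and CCT2, TCP1 and CCT3 differed by -0.47, -0.42 and -0.41. Of 16 further HSP90 and co-chaperone genes 3 were lower: FKBP4 (log2 -0.47), AHSA1 (-0.45), which stimulates the HSP90 ATPase, and STIP1 (-0.41), which links HSP70 to HSP90. Of 9 further HSP70 and HSP110 genes HSPA4 (-0.49) and HSPA14 (-0.37) were lower. Of 14 further J-domain genes DNAJC5 (-0.52) and DNAJA2 (-0.39) were lower, and DNAJB4 (1.08) and DNAJB2 (0.57) were higher. Of 11 mitochondrial chaperones and proteases 1 was lower, GRPEL1 (-0.74), the exchange factor of mitochondrial HSP70, and of 8 exchange factors and BAG genes 1, BAG1 (-0.61). None of 6 prefoldin subunits, 4 small heat shock proteins of 6 in the table that were tested, 3 heat shock factors with HSBP1 and 4 ubiquitin genes passed at 4 h.

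At 48 h all 8 TRiC subunits were lower than in DMSO, with a median log2 of -0.76 against 0.00 over all genes, and 6 of 11 mitochondrial genes were lower, where 16.4% of all genes were. HSPA9, the mitochondrial HSP70, averaged 3643 ± 304 at 48 h and 8945.5 ± 629 with DMSO (SD, n = 3 each, log2 -1.30, adjusted p = 4.98e-09, limma). In the mean of the 4 lines against naive cells 9.79% of all genes were higher and 12% lower. There 1 of 8 TRiC subunits was higher (CCT3, 0.24) and 1 lower (CCT2, -0.30). Of the HSP90 co-chaperones 4 were lower, among them FKBP4 (-0.53) and SUGT1 (-0.47), and 2 higher, among them PPP5C (0.52). Of the mitochondrial genes TRAP1 (0.62), the HSP90 of mitochondria, and DNAJA3 (0.26) were higher and HSPA9 (-0.40) was lower. HSPA6 (1.58) and CRYAA (2.62) were higher and HSPA13 (-0.81), SIL1 (-0.57), DNAJB5 (-0.72) and RPS27A (-0.62) lower, while BAG2 (0.54) and PFDN6 (0.58) were higher and PFDN5 (-0.48) lower. CRYAA was low throughout, with 88.5 ± 11.1 in the INC424 line and 2.60 ± 1.87 in naive cells (SD, n = 3 each).

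**Figure D4:**
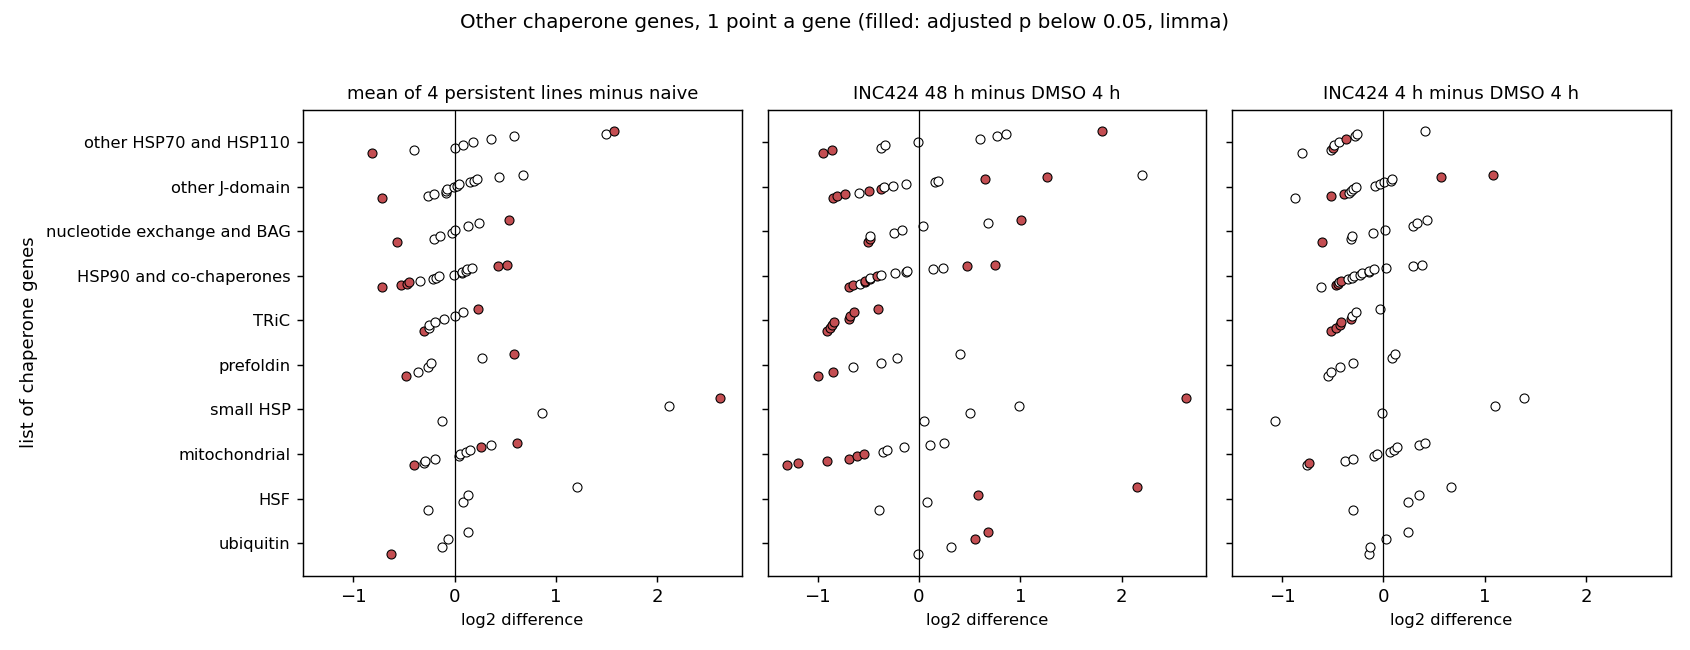
Fitted log2 differences of the other chaperone genes, 1 point a gene, by list in 3 comparisons (limma), filled where the adjusted p was below 0.05. The TRiC points lie left of 0 at 4 h and 48 h of INC424 against DMSO, where 5 and 8 of 8 passed, and on both sides of 0 in the mean of the 4 lines.

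The 3 heat shock factors HSF1, HSF2 and HSF4 did not pass at 4 h, nor did HSBP1, which binds HSF1. HSF1 averaged 3798 ± 309 after 4 h of INC424 and 2978 ± 374 with DMSO (SD, n = 3 each, log2 0.36, adjusted p = 0.203, limma), and at 48 h it was higher, at 4434 ± 180 (log2 0.58, adjusted p = 0.00662, limma). HSF2 differed from DMSO by 0.25 at 4 h and 0.07 at 48 h, and HSBP1 by -0.30 and -0.39, none past the threshold. HSF4 was higher at 48 h (log2 2.15, adjusted p = 0.0172, limma). In the mean of the lines against naive cells HSF1 had -0.26, HSF2 0.08, HSF4 1.21 and HSBP1 0.14, with no call. RNA of a factor does not give its activity.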

How the data were processed

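RNA of 24 SET2 libraries was analysed from 1 table of 25082 genes. Its signal values are reads per gene divided by a size factor per library, which the authors deposited as normalised counts. Per the submitters' processing notes BWA 0.7.5.1, HTSeq 0.5.3p3, DESeq 1.10.1 and hg19 were used; their roles and the use of strand are not given in the sources used here. The steps between low values gave back whole reads for 100% of values (tolerance 0.01); in 3 libraries the step was near 1. Groups followed the labels. limma 3.58.1 in R 4.3.3 was fitted to log2(value + 1) of the 20154 genes with at least 10 in at least 3 libraries, with all 8 groups, a mean-variance trend and 16 residual degrees of freedom, and Benjamini-Hochberg adjustment within each comparison (threshold 0.05). The log2 differences understate changes of low genes. The scripts were tested on simulated data. Alternatives were other pseudocounts, filters, scalings, weights and terms, each library left out, and edgeR 4.0.16 and DESeq2 1.42.0 on the recovered reads. The members and all lists were chosen with earlier results of these data known. The text names the members, the heat shock factors with HSBP1 and, from each chaperone list, up to 4 genes with the largest differences past the threshold at 4 h of INC424 and in the mean of the lines. 1 gene that this rule would name is not reported here. Others, named for 48 h, were chosen after their values were seen. Promoters came from RefSeq (GRCh38.p14), lengths from GENCODE 29; Python 3.11.15, pandas 2.3.3 and matplotlib 3.10.9 were used. Intervals are 95%.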

Additional observations from a re-analysis of the deposited data

Results flagged for a closer look

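The change of the INC424 persistent line against naive cells differed from the change of 4 h INC424 against DMSO in 7 of 10 members. This was a test of the difference itself (limma, n = 3 a group), where 8.11% of all genes had a higher call. The log2 differences between the changes were 0.809 for DNAJA1, 1.17 for HSPA8, 1.46 for HSPE1, 1.17 for HSPH1, 0.873 for DNAJB1, 0.869 for HSPD1 and 1.81 for HSPA1B. With the mean of the 4 lines in place of the INC424 line they were 0.707 for DNAJA1, 1.33 for HSPA8, 1.34 for HSPE1, 1.202 for HSPH1, 1.06 for DNAJB1, 0.759 for HSPD1 and 1.94 for HSPA1B. The 2 sets share the INC424 4 h, DMSO 4 h, naive and INC424 persistent libraries. Of all genes tested 7.31% had a higher call with the mean of the lines. DNAJB1 kept its call for the INC424 line in 6 of 24 fits with a library left out. In the test of that line, the DMSO level against naive cells was the larger part for HSPA8, HSPE1, HSPH1, HSPA1B and DNAJB1. It was the smaller part for DNAJA1 and HSPD1. Compared directly, 2 of 10 members were higher in the INC424 line than after 4 h of INC424, where 11.4% of all genes were. The 4 lines differed among themselves in DNAJA1, whose line means spanned 0.523 on the log2 scale, and in HSPD1, whose line means spanned 0.853 (moderated F-test of limma). Among all genes tested 47.1% differed between lines. Single outlying libraries within the groups of 3 were not tested.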

How the results depend on the processing

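Shares of all genes called in each alternative setting below are not given here, so a moved count is not a result about the members alone. The count of called members moved by over 1.5 times in these settings. For the BMS911543 line against naive cells (1) it was 5 with sample quality weights, 2 in a fit of the compared groups alone and 3 without the 4 libraries with the most squamous epithelial RNA. For the CYT387 line (4) it was 2 without the trend, 0 in the compared groups alone and 2 with both naive library 1 and CYT387 persistent library 2 left out, an alternative chosen after seeing the data. For the INC424 line (2) it was 1 with upper-quartile scaling, 4 with quality weights, 1 with a term for libraries run again and 5 without the 4 libraries. For the SAR302503 line (2) it was 4 without the 4 libraries and 4 with both left out. For the mean of the lines (2) it was 1 without the trend, 4 with quality weights, 1 in the groups alone, 1 with the run-again term and 4 without the 4 libraries. For the INC424 line against INC424 4 h (2) it was 7 with quality weights, 7 in the groups alone, 4 with DESeq2, 4 without the 4 libraries and 7 with both left out, and against INC424 48 h (3) it was 8 with quality weights, 8 in the groups alone, 6 without the 4 libraries and 7 with both left out. For INC424 4 h against naive cells (2) it was 6 with quality weights and 6 without the 4 libraries, and for 48 h against naive cells (2) 1 with upper-quartile scaling, 6 with quality weights, 5 in the groups alone, 5 without the 4 libraries and 5 with both left out; these 2 comparisons were chosen after seeing the data. For differences among the lines (2) it was 6 with quality weights, 4 with DESeq2, 6 without the 4 libraries and 6 with both left out. With each library left out in turn the counts ranged from 4 to 9 for INC424 4 h against DMSO, 2 to 5 for 48 h against 4 h, 0 to 1 for the BMS911543 line, 1 to 3 for the INC424 line, 1 to 3 for the mean of the lines, 0 to 6 for the INC424 line against 4 h, 2 to 6 against 48 h, 4 to 9 for DMSO against naive cells, 2 to 5 for INC424 4 h and 0 to 5 for 48 h against naive cells, and 2 to 5 among the lines. The cause was not tested. Signs turned mostly in differences near 0, but HSPA1A in the SAR302503 line turned from 0.46. The adjusted p is given where the turned value passed. Against naive cells, HSP90AA1 in the CYT387 line was 0.012 with DESeq2 (-0.29 to 0.12 with libraries left out). HSP90AB1 in that line was 0.22 with quality weights (adjusted p = 0.0344, limma), 0.12 without the 4 libraries and 0.23 with both left out (-0.20 to 0.12), and HSPD1 was 0.014 with both left out. In the INC424 line HSPH1 was 0.013 with both left out (-0.24 to 0.013), HSP90AA1 was -0.037 without the 4 libraries (-0.037 to 0.20), and HSP90AB1 was 0.016 with quality weights and 0.022 with both left out (-0.16 to 0.022). In the SAR302503 line HSPA8 was 0.13 with quality weights, 0.025 without the 4 libraries and 0.15 with both left out (-0.20 to 0.15). There HSPA1A was -0.53 without the 4 libraries (adjusted p = 0.0399, limma; -0.53 to 0.96). HSPH1 was 0.15 with quality weights, 0.051 with the run-again term, 0.16 without the 4 libraries and 0.14 with both left out (-0.13 to 0.16). HSP90AB1 was 0.071, 0.013, 0.076 and 0.080 in the same settings (-0.11 to 0.080). In the mean of the lines HSP90AB1 was 0.065 with quality weights and 0.074 with both left out (-0.16 to 0.022), and HSPH1 ranged from -0.21 to 0.045. HSP90AA1 in the BMS911543 line ranged from -0.024 to 0.20 and at 48 h against 4 h from -0.12 to 0.018. In the INC424 line against 4 h it was 0.0014 with TMM, 0.0037 with edgeR and 0.00093 with DESeq2 (-0.10 to 0.094), and against 48 h -0.029 without the 4 libraries (-0.024 to 0.17). Against naive cells at 4 h HSPA1B was 0.0082 with both copies summed and HSP90AA1 ranged from -0.031 to 0.20, and at 48 h HSPA8 was 0.039 with both left out (-0.31 to 0.039) and HSP90AA1 was 0.054 with upper-quartile scaling, 0.076 with quality weights, 0.035 with the run-again term and 0.12 with both left out (-0.10 to 0.12). DNAJA1 in the line against 48 h was -0.023 with upper-quartile scaling, -0.044 with quality weights and -0.11 without the 4 libraries (-0.091 to 0.085). With the replicate number as a block, 7 members passed for INC424 4 h against DMSO, 7 for DMSO against naive cells and 6 for the INC424 line's change minus the 4 h change. The numbers share no source in the labels, and same-numbered libraries did not deviate together (median r = -0.006, from -0.43 to 0.31 over 84 pairs).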
